A study of Mus musculus with 10 samples.

Results

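The chromatin around Cdkn1a, Rb1 and Ccnd1, 3 genes that act on the decision of a cell to leave the cell cycle, was examined for MyoD binding, Myf5 binding and acetylation of histone H4 (H4Ac). The members are all listed peaks that share at least 1 bp with 3 windows of the mouse build mm9: chr17:29195000-29260000 for Cdkn1a (65 kb), chr14:73580000-73750000 for Rb1 (170 kb) and chr7:152090000-152150000 for Ccnd1 (60 kb). They number 86 of the 241128 peaks in 7 lists, with 41 at Cdkn1a, 33 at Rb1 and 12 at Ccnd1. The series mapped the factors and H4Ac by chromatin immunoprecipitation and sequencing (ChIP-seq), to set the activities of MyoD and Myf5 side by side in cells that have neither of their own. All samples, controls included, were mouse embryonic fibroblasts (MEFs) of the genotype MyoD-/-; Myf5-/-, to which MyoD, Myf5 or green fluorescent protein (GFP) was added by lentivirus. The medium was changed 12 h after infection, the cells went into differentiation medium with insulin and transferrin 24 h after infection, and they were collected after 20 h there. The factors are thus driven by a virus in fibroblasts and not from their own genes in myoblasts, and no expression data were used here to check the cell type.

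MyoD was precipitated from cells with MyoD and Myf5 from cells with Myf5, and each of these lists covers 2 replicates together by its title. H4Ac has 1 list each from cells with MyoD, cells with Myf5 and cells with GFP. Mock precipitations with the MyoD antibody and with the Myf5 antibody, both from cells with GFP, have 1 list each. The remaining 3 of the 10 samples are inputs, for which no list was used here. With 1 list per group there is no replicate error, so no p-value across replicates is given, and the sequencing depth per sample is unknown. Peak strength is the authors' maximum coverage within the peak. It was ranked within its own list, with rank 1 the highest, and the file headers name no scaling of coverage between lists. Shares carry exact (Clopper-Pearson) 95% binomial intervals, which hold counting error alone and treat neighbouring peaks as if they were independent.

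Cdkn1a encodes p21, an inhibitor of cyclin-dependent kinases that is induced when myoblasts differentiate and helps to hold them in a postmitotic state. Rb1 encodes the retinoblastoma protein, which in its hypophosphorylated form binds E2F transcription factors and keeps genes for DNA replication silent, and which muscle cells need for a stable exit. Ccnd1 encodes cyclin D1, which with Cdk4 or Cdk6 phosphorylates the retinoblastoma protein, promotes entry into the cycle and is known to oppose MyoD activity in myoblasts. Both MyoD and Myf5 belong to the basic helix-loop-helix factors and bind E-boxes (CANNTG), and acetylated histone H4 is a mark of active chromatin.

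The promoter sequence of Cdkn1a is shown because E-boxes are the letters both factors are known to bind. Of the 3 genes, only Cdkn1a matched the RefSeq promoter table used here (build GRCm38.p6), with 2 starts on the plus strand. Each stretch runs from 250 bases before the start to 50 bases after it, 5′ to 3′, and every E-box is in capitals.
Cdkn1a chr17:29090729-29091028: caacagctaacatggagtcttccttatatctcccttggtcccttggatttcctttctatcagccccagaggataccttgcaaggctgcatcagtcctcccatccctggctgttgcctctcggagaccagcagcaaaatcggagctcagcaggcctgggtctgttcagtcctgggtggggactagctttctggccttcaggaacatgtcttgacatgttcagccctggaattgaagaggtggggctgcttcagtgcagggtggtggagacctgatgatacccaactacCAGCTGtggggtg
Cdkn1a chr17:29093519-29093818: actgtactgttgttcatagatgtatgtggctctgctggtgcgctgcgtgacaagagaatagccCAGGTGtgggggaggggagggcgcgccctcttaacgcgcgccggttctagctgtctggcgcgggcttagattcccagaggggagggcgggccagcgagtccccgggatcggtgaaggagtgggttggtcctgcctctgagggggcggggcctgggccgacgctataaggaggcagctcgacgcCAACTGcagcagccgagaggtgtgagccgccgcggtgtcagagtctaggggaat
The upstream start had 1 E-box, CAGCTG, 37 bases downstream of the start, and a GC content of 54.7%. The downstream start had 2 E-boxes and a GC content of 64.7%. CAGGTG began 187 bases upstream of the start. CAACTG began 4 bases upstream and so runs across the start. On either strand, 72.3% of the 32851 promoters in the table held a CANNTG, 16.3% held CAGCTG and 20.2% held CAGGTG or CACCTG, so a match is a description and not a binding site. The CANNTG search includes the other motifs. These positions are of another build than the peaks, so which of the peaks below lies at which start was not determined.

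Binding of both factors was densest at Cdkn1a. The Cdkn1a window held 11 MyoD and 17 Myf5 peaks, the Rb1 window 5 and 9, and the Ccnd1 window 3 and 7, each time with the MyoD count first. Per 100 kb of window this was 16.9 MyoD and 26.2 Myf5 peaks at Cdkn1a, 2.94 and 5.29 at Rb1 and 5 and 11.7 at Ccnd1, beside 1.75 and 3.65 over the span of the listed chromosomes. Cdkn1a thus stood at 9.66 times the series density for MyoD and 7.16 times for Myf5. Rb1 was at 1.68 and 1.45 times, and Ccnd1 at 2.85 and 3.20 times. Counted at full width, MyoD peaks added up to 14.4% of the Cdkn1a window, 2.66% of the Rb1 window and 2.95% of the Ccnd1 window. They made up 1.29% of the span as a whole. At Cdkn1a, 1 of these peaks runs past the edge of the window, so the part inside is slightly smaller. The mock lists, with 942 peaks for the MyoD antibody and 1359 for the Myf5 antibody, had 0 peaks in each of the 3 windows. Their density over the span was 0.0367 and 0.0529 peaks per 100 kb, so 0 was the likely count in windows of this size and says little. Control coverage inside the member peaks was 2 to 8 for MyoD and 4 to 16 for Myf5, while peak coverage ran from 29 to 427 for MyoD and from 28 to 1020 for Myf5.

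**Figure D1:**
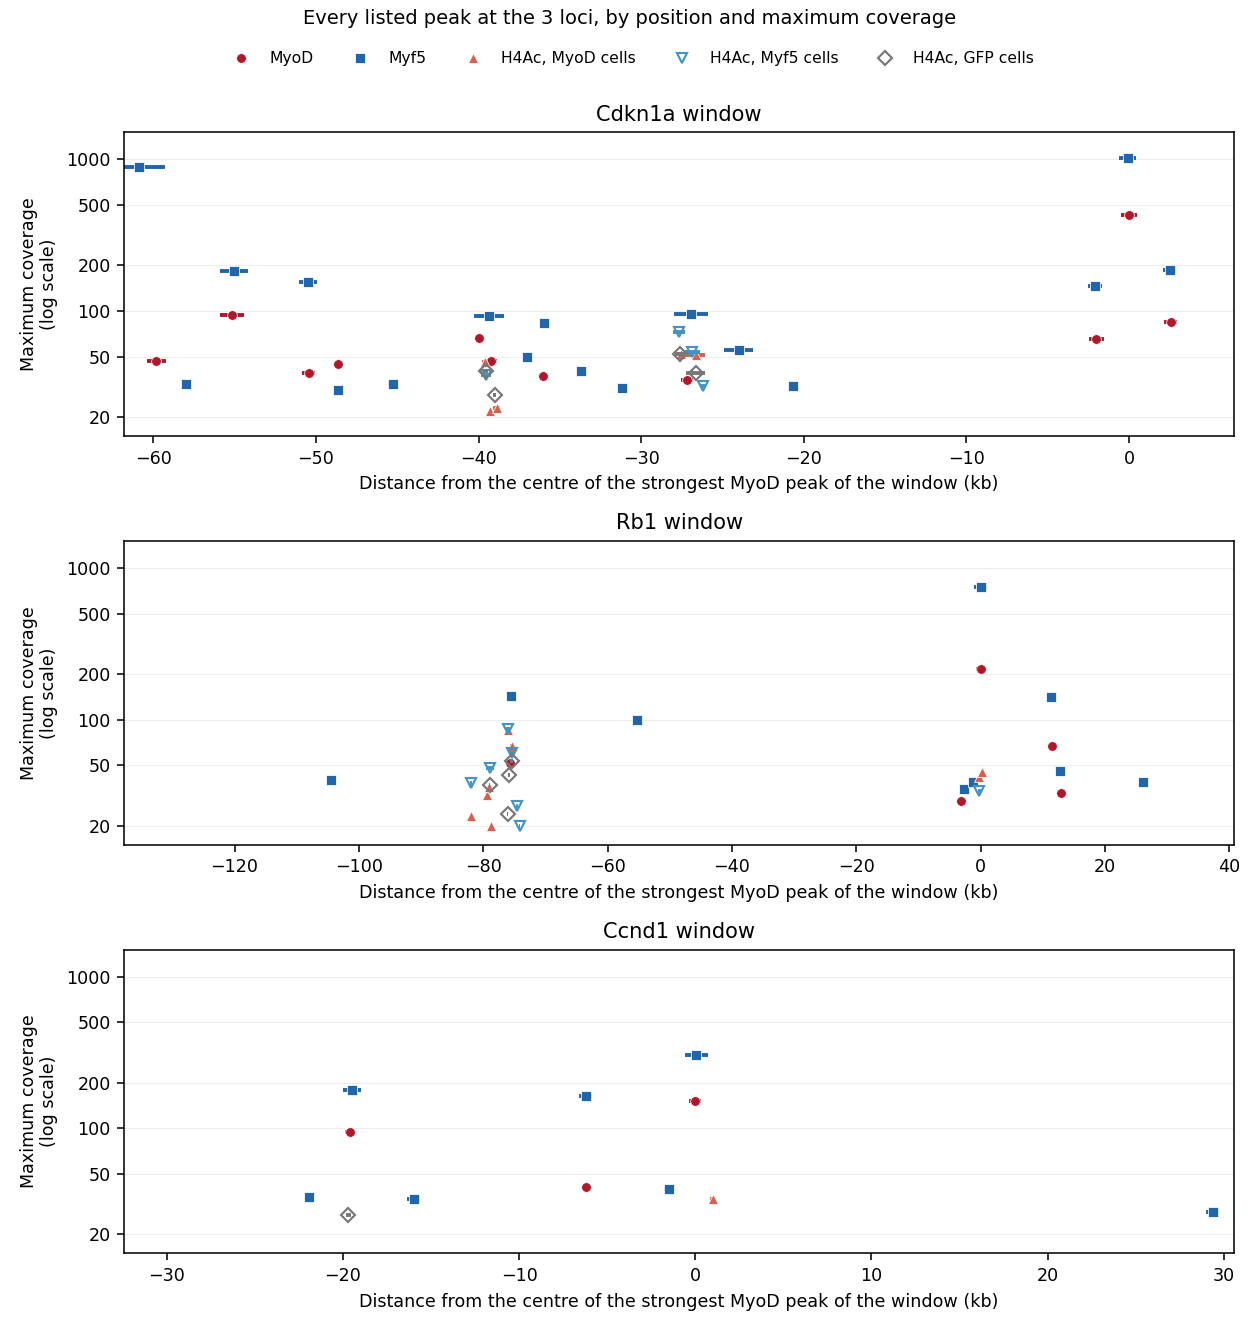
Each listed peak at the Cdkn1a, Rb1 and Ccnd1 windows, with distance in kb from the centre of the strongest MyoD peak on the x axis and maximum coverage on a log axis; bars span the peak, symbols mark its centre, and colours give the 5 lists with peaks. Cdkn1a carries the most factor peaks (11 MyoD and 17 Myf5), the high Rb1 site at 0 has H4Ac symbols of cells with MyoD and with Myf5 beneath it, and Ccnd1 has 1 H4Ac symbol each for MyoD and GFP; the Myf5 peak at the left edge of the Cdkn1a panel runs on outside the window.

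Most of the member peaks were of ordinary strength for their lists, and few were among the strongest. Over the 3 loci, 10 of 19 MyoD peaks and 16 of 33 Myf5 peaks were above the median coverage of their own list (49 for MyoD and 55 for Myf5). The medians of the members were 52 and 55. The best MyoD rank was 380 of 45015 at Cdkn1a, 2108 at Rb1 and 4259 at Ccnd1. The best Myf5 rank was 279 of 93787 at Cdkn1a, 735 at Rb1 and 5291 at Ccnd1. The order of the loci by their strongest peak was the same for both factors, and in each locus the same site was strongest in both lists.

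**Figure D2:**
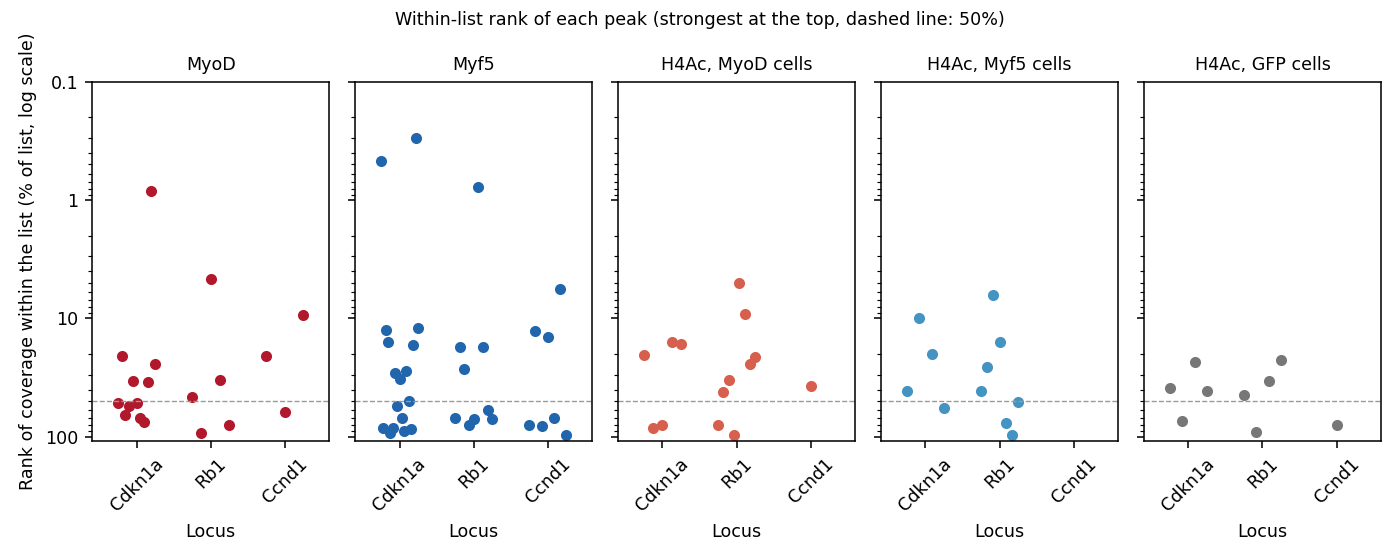
Rank of every member peak within its own list, as a percent of the list on a log axis with the strongest at the top, by locus and for each of the 5 lists. The dashed line marks 50%; 1 MyoD peak at Cdkn1a and 3 Myf5 peaks (2 at Cdkn1a and 1 at Rb1) lie in the top 1% of their lists, and 16 of 33 Myf5 peaks lie above the list median.

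The strongest site at Cdkn1a was chr17:29254649-29255675. MyoD coverage there was 427, in the top 0.844% of its list, and the Myf5 peak at chr17:29254578-29255586 reached 1020, in the top 0.297%. Control coverage was 4 for MyoD and 16 for Myf5. It was the middle one of 3 MyoD peaks that lay within 5.45 kb, each with its own Myf5 peak. The flanking MyoD peaks had coverages of 65 (chr17:29252696-29253623) and 84 (chr17:29257315-29258144), and their Myf5 partners had 147 (chr17:29252667-29253529, rank 15700) and 187 (chr17:29257269-29258043, rank 11416). No H4Ac peak was called over any of the 3 sites in any population. From the central MyoD peak, the nearest H4Ac peak was 25532 bp away in cells with MyoD, 25537 bp in cells with Myf5 and 25537 bp in cells with GFP. Lack of H4Ac at so strong a MyoD site was common: of the 383 MyoD peaks in the series with a coverage of at least 427, 43.9% overlapped no H4Ac peak in any population. The GRCm38 gene table lists Srsf3 and Trp53cor1 on one side of Cdkn1a and Rab44 on the other among its neighbours, so lying in this window does not assign a peak to Cdkn1a.

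The other end of the Cdkn1a window held the second strongest Myf5 peak of the loci, chr17:29192680-29195869, with a coverage of 892 (rank 435) and a width of 3190 bp. It crosses the edge of the window and lies over 2 MyoD peaks. The MyoD peak that reaches into the window, chr17:29194758-29195922, had a coverage of 47 (rank 23542). The MyoD peak just outside, chr17:29192991-29194287, had a coverage of 305 (rank 957), so the low MyoD value inside the window belongs to the flank of a site whose main MyoD peak is not a member. Neither MyoD peak overlapped H4Ac. Further in, the MyoD peak chr17:29199246-29200763 had a coverage of 94 (rank 9316) and its Myf5 partner, chr17:29199271-29201008, had 182 (rank 11842).

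H4Ac at Cdkn1a was present with and without the myogenic factors. The window held 5 H4Ac peaks in cells with MyoD, 4 in cells with Myf5 and 4 in cells with GFP, which covered 2598, 2582 and 2342 bp. Merging overlapping or touching H4Ac peaks of the 3 populations gave 3 regions. The broadest, chr17:29227150-29229117 (1968 bp), had maximum coverages of 52 in cells with MyoD, 73 in cells with Myf5 and 52 in cells with GFP. These were 2.36, 2.70 and 2.00 times the authors' cutoff for calling a peak. A weak MyoD peak (chr17:29227618-29228357, coverage 35, rank 33705) and a Myf5 peak of 95 (chr17:29227194-29229304, rank 26230) overlapped it. The region chr17:29215305-29215956 was called in all 3 populations too, with coverages of 46 in cells with MyoD, 38 in cells with Myf5 and 40 in cells with GFP.

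Adjacent to it, chr17:29216050-29216474 was called in cells with MyoD (23) and in cells with GFP (28), but not in cells with Myf5. Both values were close to the cutoff, at 1.05 times it in cells with MyoD and 1.08 times in cells with GFP, so a missing call at this height says little about a difference in acetylation. MyoD peaks of 66 (chr17:29214966-29215473) and 47 (chr17:29215517-29216321) lay over parts of these 2 regions. A single Myf5 peak of 92 (chr17:29214872-29216710) covered both. All the H4Ac regions of the window thus met factor peaks of moderate or low rank, and none met its strongest site. Of the 5 H4Ac peaks in cells with MyoD, 1 overlapped no GFP peak, against 30.7% of the whole list with MyoD. It was a peak at the cutoff (coverage 22) between 2 peaks that GFP cells share. In cells with Myf5, 0 of 4 H4Ac peaks were without a GFP peak, against 31.9% of the whole list with Myf5.

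At Rb1 the strongest factor site carried H4Ac in cells with MyoD and in cells with Myf5 but not in cells with GFP. MyoD coverage was 216 at chr14:73712728-73714258 (rank 2108, top 4.68%), and Myf5 coverage was 747 at chr14:73712492-73714481 (rank 735, top 0.784%). The centres of the MyoD and the Myf5 peak were 7 bp apart. Control coverage there was 4 for MyoD and 13 for Myf5.

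In cells with MyoD, 2 H4Ac peaks lay inside this MyoD peak, chr14:73712995-73713310 with a coverage of 42 (rank 9033) and chr14:73713647-73713850 with 45 (rank 7885). They were 2.00 and 2.14 times their cutoff. In cells with Myf5, 1 H4Ac peak, chr14:73713054-73713469, had a coverage of 34 (rank 16220), at 1.42 times its cutoff. In cells with GFP no peak was called, and the nearest H4Ac peak was 70307 bp from the edge of the MyoD peak. As merged regions, chr14:73712995-73713469 was therefore called in cells with MyoD and with Myf5, and chr14:73713647-73713850 in cells with MyoD alone.

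Of the 2128 MyoD peaks with a coverage of at least 216, 7.47% overlapped H4Ac in cells with MyoD and in cells with Myf5 and not in cells with GFP, so the state is an infrequent one among sites this strong, though 159 sites had it. The call in cells with Myf5 was near its threshold: with peaks of at least 1.5 times the cutoff, H4Ac at this site was called only in cells with MyoD. The lists hold called peaks alone, so H4Ac below the cutoff in cells with GFP is not measured.

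The 2 H4Ac peaks of cells with MyoD flanked the factor site. The centre of the MyoD peak fell into the 336 bp between them, 183 bp from the left one and 154 bp from the right one. In cells with Myf5 the single H4Ac peak ended 24 bp before that centre. H4Ac was mapped on native chromatin cut with micrococcal nuclease, while the factors were mapped on crosslinked and sonicated chromatin, and centres are midpoints of intervals and not summits.

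**Figure D3:**
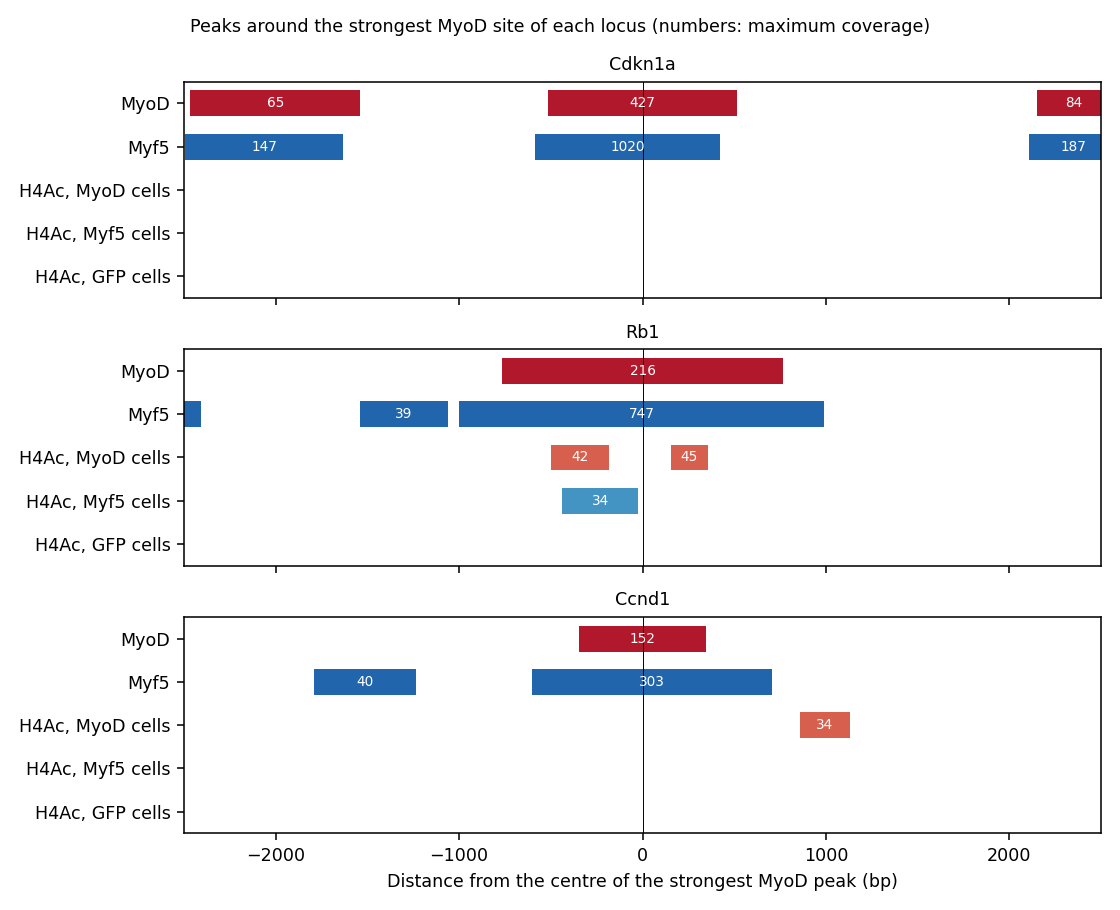
Called peaks within 2500 bp of the centre of the strongest MyoD peak of each locus, with distance in bp on the x axis, 1 row per list and the maximum coverage written on each peak. At Rb1 the H4Ac peaks of cells with MyoD (42 and 45) flank the centre and cells with GFP have none; at Cdkn1a no list has H4Ac there; at Ccnd1 the H4Ac peak of cells with MyoD (34) lies beside the factor peaks.

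A second part of the Rb1 window held H4Ac in every population and the highest H4Ac of the 3 loci. The region chr14:73637159-73637733 had maximum coverages of 86 in cells with MyoD (rank 1868), 87 in cells with Myf5 (rank 2023) and 43 in cells with GFP (rank 10592). These were 4.53, 4.35 and 2.05 times the cutoff. Coverage was 2.00 times that of GFP in cells with MyoD and 2.02 times in cells with Myf5. Over all merged regions called in both lists, the median ratio to GFP was 0.875 with MyoD (10th to 90th percentile 0.633 to 1.24, 22205 regions) and 1.03 with Myf5 (0.651 to 1.48, 20794 regions). The ratio at this region was in the top 0.432% of regions with MyoD and the top 1.01% with Myf5. Both factor populations are set against the same GFP list, so the 2 ratios share that value. The region was named for its high H4Ac, a choice that itself favours a high ratio. The ratios also depend on the merging rule. With peaks within 500 bp merged, the region becomes part of chr14:73637159-73639377, where GFP coverage reaches 53, so both ratios would be lower.

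The neighbouring region chr14:73637811-73638387 differed less. It had coverages of 67 in cells with MyoD, 60 in cells with Myf5 and 53 in cells with GFP, which gives ratios to GFP of 1.26 and 1.13 (top 8.71% with MyoD and top 35.8% with Myf5). A MyoD peak of modest strength (chr14:73637486-73638007, coverage 52, rank 20800) and a Myf5 peak of 142 (chr14:73637300-73638723, rank 16411) spanned the space between these regions. The centre of the MyoD peak lay in a gap in H4Ac of 94 bp in cells with MyoD, 77 bp in cells with Myf5 and 95 bp in cells with GFP, so this gap was also there without either factor.

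Weaker H4Ac regions around it were called in some populations only. chr14:73631287-73631702 was called in cells with MyoD (coverage 23) and with Myf5 (38) and not with GFP, and had no factor peak: the nearest MyoD peak was 5784 bp and the nearest Myf5 peak 5598 bp away. Its coverage was 1.21 times the cutoff with MyoD and 1.9 times with Myf5. With peaks of at least 1.5 times the cutoff, it was called in cells with Myf5 alone. chr14:73638734-73639103 (27) and chr14:73639274-73639377 (20) were called in cells with Myf5 alone, 11 and 551 bp from a Myf5 peak, at 1.35 and 1.00 times the cutoff. The region chr14:73633999-73635182 was called in all 3 populations, with coverages of 36 in cells with MyoD, 48 in cells with Myf5 and 37 in cells with GFP, and it overlapped no factor peak either.

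In total the Rb1 window held 8 H4Ac peaks in cells with MyoD, 7 in cells with Myf5 and 4 in cells with GFP, covering 2366, 3642 and 1020 bp. The H4Ac peak density was 3.28 times that of the list with MyoD, 3.30 times with Myf5 and 1.94 times with GFP. These ratios were higher at Cdkn1a, at 5.36 with MyoD, 4.93 with Myf5 and 5.08 with GFP. Of these peaks, 5 of 8 in cells with MyoD (interval 24.5 to 91.5%) and 4 of 7 in cells with Myf5 (18.4 to 90.1%) overlapped no GFP peak. Both intervals hold the shares of the whole lists, 30.7% with MyoD and 31.9% with Myf5. Among the 5 with MyoD, chr14:73634042-73634250 and chr14:73634652-73634712 are parts of chr14:73633999-73635182, a region called in all 3 populations. None of the 4 GFP peaks at Rb1 was without a peak in cells with MyoD or in cells with Myf5, against 23.9% and 27.2% of the whole GFP list. Much of the Rb1 H4Ac lay in AT-rich sequence. In the lowest of the authors' 5 GC bins (40% GC or less) were 6 of 8 peaks with MyoD, 6 of 7 with Myf5 and 4 of 4 with GFP. The shares of the whole lists were 13.1%, 19.2% and 13.3%. All of these low-GC peaks lay in 1 stretch, chr14:73631287-73639377, so they share local sequence and are not separate observations. The cutoff is set per GC bin and was 19 with MyoD, 20 with Myf5 and 21 with GFP for these peaks, and the part that this plays in the calls was not tested.

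Among other factor sites at Rb1, MyoD at chr14:73724608-73725255 had a coverage of 67 (rank 15045) and its Myf5 partner, chr14:73724363-73725385, had 141 (rank 16554), with no H4Ac called in any population. Myf5 had a peak of 99 at chr14:73657801-73658482 (rank 25046) without a MyoD peak, the strongest Myf5 peak of the 3 loci that MyoD did not share. In GRCm38 the gene table places Lpar6 and Mir687 within Rb1, with Rcbtb2 and Itm2b as neighbours on either side, so lying in the Rb1 window does not assign a peak to Rb1.

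Ccnd1 held no H4Ac peak in cells with Myf5 and 1 each in cells with MyoD and with GFP. The strongest site had a MyoD coverage of 152 (chr7:152120567-152121262, rank 4259, top 9.46%) and a Myf5 coverage of 303 (chr7:152120313-152121620, rank 5291, top 5.64%). No H4Ac peak overlapped it, as for 56.7% of the 4313 MyoD peaks with a coverage of at least 152. In cells with MyoD an H4Ac peak of 34 (chr7:152121771-152122046, rank 13740) lay 509 bp from the MyoD peak and 151 bp from the Myf5 peak, and it was called in no other population. From this MyoD peak the nearest H4Ac was 186765 bp away in cells with Myf5 and 19209 bp away in cells with GFP.

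The second Ccnd1 site had a MyoD coverage of 94 (chr7:152101026-152101608, rank 9316) and a Myf5 coverage of 179 (chr7:152100909-152101939, rank 12085). Of the 3 populations, only cells with GFP had an H4Ac peak there, chr7:152101097-152101358, with a coverage of 27 (rank 24660). The third site had 41 for MyoD (chr7:152114457-152114945, rank 27847) and 164 for Myf5 (chr7:152114334-152115057, rank 13604), with no H4Ac. The window thus held 1 H4Ac peak in cells with MyoD, 0 in cells with Myf5 and 1 in cells with GFP, at different places. The peak density was 1.16 times that of the list with MyoD and 1.38 times with GFP, so it was near these lists. The list with Myf5 has 1.25 peaks per 100 kb, so 0 peaks in a window of 60 kb is not a departure from it. The peaks stood at 1.31 times the cutoff with MyoD and 1.04 times with GFP, and neither remained with peaks of at least 1.5 times the cutoff. The GRCm38 gene table lists LTO1 and Tpcn2 among the neighbours of Ccnd1.

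Over the 3 loci, the merged H4Ac regions numbered 13. Of these, 5 were called in all 3 populations, 2 with MyoD and Myf5, 2 with MyoD only, 2 with Myf5 only, 1 with MyoD and GFP, 0 with Myf5 and GFP, and 1 with GFP only. Over the 45615 merged regions of the series, the same classes made up 40.8%, 8.3%, 14% (MyoD only), 13.7%, 7.89%, 4.79% and 10.5%. By peaks, 7 of 14 H4Ac peaks in cells with MyoD and 4 of 11 in cells with Myf5 overlapped no GFP peak, against 30.7% and 31.9% of the whole lists. Some of the 7 are parts of merged regions called in all 3 populations: chr17:29215820-29215945, chr14:73634042-73634250 and chr14:73634652-73634712. The count by peaks is thus higher than one by regions would be. Of the 9 GFP peaks, 1 was without a peak in cells with MyoD and 2 were without one in cells with Myf5, against 23.9% and 27.2%. With so few peaks, these shares do not stand apart from those of the lists by more than counting error allows: the interval of 7 of 14 was 23.0 to 77.0%.

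**Figure D4:**
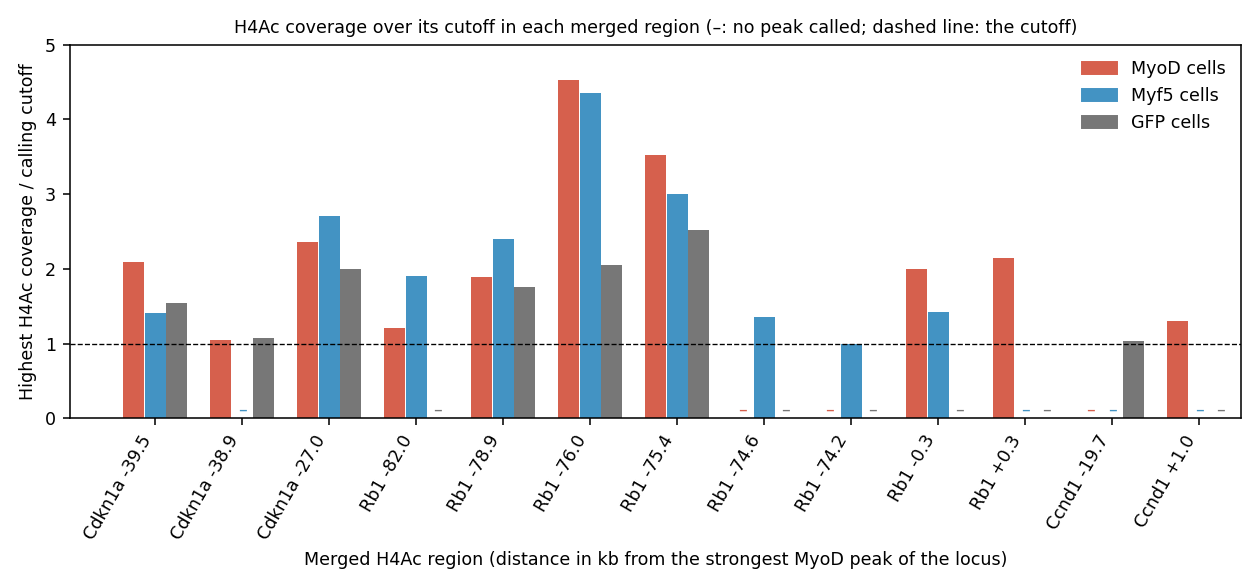
The highest H4Ac coverage as a multiple of the calling cutoff in each of the 13 merged regions, for cells with MyoD, Myf5 and GFP, with regions named by locus and distance in kb from the strongest MyoD peak. The Rb1 region at -76.0 kb has the highest multiples with MyoD (4.53) and Myf5 (4.35), against 2.05 with GFP, and several regions called in 1 population only lie near the dashed line of the cutoff.

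Every MyoD peak at these loci overlapped a peak of the longer Myf5 list, as nearly all MyoD peaks of the series did. All 19 of 19 MyoD peaks overlapped a Myf5 peak (interval 82.4 to 100%), which is close to the 97.5% of the whole MyoD list. In the other direction, 18 of 33 Myf5 peaks (54.5%, interval 36.4 to 71.9%) overlapped a MyoD peak, against 45.9% of the whole Myf5 list. By locus these were 10 of 17 at Cdkn1a, 5 of 9 at Rb1 and 3 of 7 at Ccnd1. The Myf5 peaks with a MyoD peak were the stronger ones, with a median coverage of 150.5 (30 to 1020, 18 peaks), and those without one had a median of 39 (28 to 99, 15 peaks). Over the series the same medians were 111 and 39. The Myf5 list is 2.08 times as long as the MyoD list. Held to as many of its strongest peaks as the MyoD list has, it left 9 Myf5 peaks at Cdkn1a, 4 at Rb1 and 3 at Ccnd1. Of the 19 MyoD peaks, 16 overlapped a Myf5 peak of that shortened list. The share of the whole MyoD list that does so was not computed, so this count is not read against the series.

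The median ratio of MyoD to Myf5 coverage at shared sites was close to that of the series. Over the 19 member pairs the median ratio was 0.449, with 8 pairs above and 11 below the median of 0.481 of all 44305 overlapping pairs (10th to 90th percentile 0.300 to 0.792). Outside this range lay 6 of the 19 pairs, 4 below it and 2 above it. The lesser of the 2 above it was at Rb1, with MyoD 29, Myf5 35 and a ratio of 0.829. The strongest sites had ratios of 0.419 at Cdkn1a, 0.289 at Rb1 and 0.502 at Ccnd1. Among these, Myf5 was highest relative to MyoD at Rb1, where 8.44% of all pairs had a ratio as low. The Cdkn1a ratio was also below the series median, with 34.9% of pairs as low. Ratios were also low at the third Ccnd1 site (0.250, as low in 4.41% of pairs) and at the Cdkn1a pair of MyoD 39 and Myf5 154 (0.253, 4.61%). The highest ratio was 1.5, at a Cdkn1a pair of MyoD 45 (chr17:29206245-29206851) and Myf5 30, the only member pair in which MyoD coverage exceeded that of Myf5. The lowest, 0.0527, is the pair at the window edge, where the MyoD peak outside the window gives 0.342 for the same Myf5 peak. The lists come from different antibodies and unknown depths, so a ratio is read only against that of other sites.

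**Figure D5:**
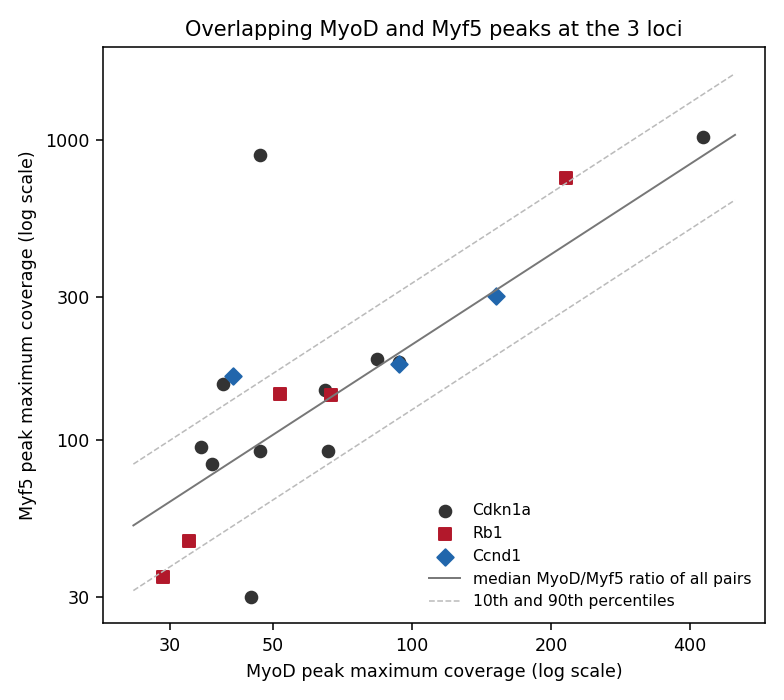
Maximum coverage of MyoD (x axis) and Myf5 (y axis) at the 19 overlapping pairs of the loci, both on log axes, with the median MyoD to Myf5 ratio of all 44305 pairs as a solid line and its 10th and 90th percentiles as dashed lines. The strongest Rb1 pair (216 and 747) lies just beyond the dashed line on the Myf5 side, and the point at 47 and 892 is the pair at the edge of the Cdkn1a window.

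In each population, H4Ac overlapped a minority of the member factor peaks, as it did over the whole factor lists. Of the 19 MyoD peaks, 5 overlapped H4Ac in cells with MyoD, 5 in cells with Myf5 and 5 in cells with GFP (26.3%, interval 9.15 to 51.2% each), against 18.6%, 15.1% and 14.4% of the whole MyoD list. Of the 33 Myf5 peaks, 4 overlapped H4Ac in each of the 3 populations (12.1%, interval 3.40 to 28.2%), against 13.6% with MyoD, 11.9% with Myf5 and 11.6% with GFP. The equal counts with and without a factor come from different sites in part, since the strongest Rb1 site counted with MyoD and Myf5 and the second Ccnd1 site with GFP. Seen from H4Ac, 9 of 14 peaks in cells with MyoD overlapped a MyoD peak (interval 35.1 to 87.2%), against 31.9% of the whole list. In cells with Myf5, 7 of 11 overlapped a Myf5 peak (30.8 to 89.1%), against 45.5%. Of the GFP peaks, 8 of 9 lay at places where MyoD bound in cells with MyoD (51.8 to 99.7%), against 27.4%. At Cdkn1a, 5 of 5 H4Ac peaks with MyoD and 4 of 4 with GFP overlapped a MyoD peak. MyoD peaks add up to 14.4% of that window, beside 1.29% of the span, and the part this plays was not tested. The members lie close together in a few regions, so these intervals are too narrow for separate sites.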

How the data were processed

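The 7 deposited peak lists hold, for every peak, its position, its maximum coverage, the cutoff it passed and a p-value; the factor and H4Ac lists add control columns. Per the file headers, the coverage (signal) is the authors' maximum in the peak, in whole numbers, and the cutoff is the authors' threshold for 1 of 5 GC bins. The deposited p-value is the authors' own and was not used. The authors' control p-value column exceeds 1 in places, was treated as a score and was not used. In 1 row the control coverage of the deposited H4Ac list of cells with GFP is a placeholder, which was set to missing. The submitters' processing notes name CASAVA 1.8.2, BWA 0.7.5 and, with no role given, the builds hg19 and mm9. The Ccnd1 window starts past the last GRCm38 gene of chromosome 7, where the lists hold 855 peaks, so positions were read as mm9, with no conversion. Not given in the sources used here are the peak caller, how each factor's 2 replicates became 1 list and which control the H4Ac lists had. Per the labels' protocols, factor chromatin was fixed in formaldehyde for 11 min and sonicated, and H4Ac chromatin was native and cut with 15 U of micrococcal nuclease for 18 min.

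The labelled antibody and transgene set each sample's group. An overlap needed 1 shared bp, with windows too, and widths count both ends. H4Ac peaks of the 3 populations that share a base or touch were merged into regions. Density refers to the 2569 Mb span of the listed chromosomes. Named with positions were, per locus, the 3 strongest peaks of each factor, factor peaks with H4Ac, H4Ac regions that differ between populations and the strongest H4Ac region. Further peaks were named after their values were seen: the other flanks of the strongest Cdkn1a site, the MyoD peak outside the window, the Myf5 peak without MyoD at Rb1, the Cdkn1a pair with the highest ratio, and the Rb1 H4Ac regions called in all 3 populations. The loci, members and rules were chosen with earlier results of these data known. Counts for other cell cycle genes were not run, since no mm9 annotation was used here, and gene names of neighbours come from RefSeq on GRCm38. Simulated lists with planted overlaps were used to test the overlap code. Alternatives were wider windows, membership by centre, higher thresholds, equal list lengths, other overlap and merging rules, and ranks by coverage over cutoff. Software was numpy 2.4.6, scipy 1.17.1, pandas 2.3.3 and matplotlib 3.10.9 under Python 3.11.15.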

Additional observations from a re-analysis of the deposited data

How the results depend on the processing

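Of 120 recomputed counts, densities and ranks, 95 stayed within 1.5 times the value reported and 25 did not. The densities restate the counts in the widened windows per 100 kb and add no separate check. Windows widened by 10 kb, membership by the peak centre, H4Ac within 500 bp and ranks by coverage over cutoff changed none by that much. With peaks of at least 1.5 times their cutoff, Myf5 peaks numbered 11 at Cdkn1a, 5 at Rb1 and 3 at Ccnd1, and MyoD peaks 3 at Rb1. H4Ac peaks were then 3 at Cdkn1a and 0 at Ccnd1 in cells with MyoD, 2 at Cdkn1a and 4 at Rb1 in cells with Myf5, and 0 at Ccnd1 in cells with GFP. Regions called with MyoD and Myf5 numbered 0, with Myf5 only 1 and with GFP only 0. That floor on H4Ac left 2 MyoD and 2 Myf5 peaks with H4Ac in cells with Myf5. With lists of equal length, Myf5 peaks were 9 at Cdkn1a, 4 at Rb1 and 3 at Ccnd1, and 1 region was called with Myf5 only. With centres within 100 bp as the overlap, 11 MyoD and 11 Myf5 peaks were shared. With 50% of the shorter peak shared, 3 MyoD peaks overlapped H4Ac in cells with MyoD and 3 in cells with Myf5. With H4Ac peaks merged over 500 bp, regions with MyoD only numbered 1, with Myf5 only 0, and with MyoD and GFP 0. By construction these settings list fewer peaks, ask for a stricter overlap or merge more. No paired analysis was possible because each group has 1 list, and no replicate could be left out. Depth is unknown, so an uncalled peak is not shown to be absent.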
